A study of Mus musculus with 22 samples.

Results

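The 10 genes described here, Pou5f1, Nanog, Sox2, Klf4, Esrrb, Tbx3, Tfcp2l1, Prdm14, Zfp42 and Dppa3, encode the best known transcription factors and markers of mouse embryonic stem (ES) cells. They were chosen by name and not by any measured value, though with earlier results of these data known. They are 10 of the 26182 curated RefSeq genes on GRCm38, the build of the deposited peaks. For each gene, peaks were counted within 1 kb of the transcription start site (TSS), over the gene body, and in the 20 kb upstream of the TSS. The stretch from 20 kb upstream of the TSS to the end of the gene sums to 480.823 kb over the 10 genes, of which Esrrb holds 180.512 kb.

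Pou5f1 (Oct4), Sox2 and Nanog form the core of the transcriptional network that keeps ES cells pluripotent. Klf4, Tbx3 and Tfcp2l1 connect LIF signalling to that core in the naive state, and Esrrb is a further factor of that state. Prdm14 is a repressor that shields naive cells from differentiation signals and DNA methylation, and Zfp42 (Rex1) and Dppa3 (Stella) are widely used markers of naive cells. Pou5f1 protein binds the octamer ATGCAAAT, often beside a Sox2 site, in enhancers and promoters of many of these genes. TERRA is the RNA transcribed from subtelomeric regions towards the ends of the telomeres. ATRX is a chromatin remodeller that deposits histone H3.3 at heterochromatin and G-rich DNA. H3K9me3 marks heterochromatin, and G-quadruplexes (G4) are folds of guanine-rich DNA.

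The cells were female mouse ES cells of a CAST/Ei x 129/Sv/Jae cross, grown with 15% FBS and LIF and collected 12 h after transfection of LNA gapmers, antisense oligonucleotides that direct the degradation of their target. One group received a gapmer against TERRA (TERRA KD) and the control group a scramble gapmer (scramble KD), so both groups were transfected. ATRX, H3K9me3 and G4 ChIP-seq and ATAC-seq were made with 2 replicates in each condition, which gave 16 peak lists. The cells are 1 hybrid line, peaks do not separate its alleles, and the study compared whole cultures.

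Per library, 4104486 to 15506154 ATRX tags, 5435286 to 13898785 H3K9me3 tags, 2961038 to 24588605 G4 tags and 5976014 to 7883648 ATAC tags remained once duplicates were dropped. The lists held 7321 to 41384 ATRX, 25490 to 76213 H3K9me3, 140119 to 389434 G4 and 78571 to 103911 ATAC peaks. TERRA KD replicate 1 had the fewest ATRX tags and the most ATRX peaks, and scramble KD replicate 2 stood apart among the G4 libraries with the most tags and peaks, so every result on ATRX and G4 is given by library. The label of ES cells was checked at the TSS in ATAC-seq. Of 26 further pluripotency genes, 24, 25, 24 and 24 had an ATAC peak there in scramble KD replicates 1 and 2 and TERRA KD replicates 1 and 2. Of 13 fibroblast genes, which would mark remaining feeder cells, 7, 8, 7 and 8 had one, and of 12 lineage genes 10, 11, 10 and 10, so a TSS peak was also listed at most genes of other cell types. In the same order, 59.4%, 63.5%, 62.3% and 64.2% of all genes had an ATAC peak at the TSS.

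The sequences below come from a selection of the ATAC sites of these genes, and several sites described further on are not shown. Each is a run of 300 bases on GRCm38 around the summit of the strongest ATAC peak of a site found in all 4 ATAC lists, on the strand of its gene, and comes from the reference assembly and not from the hybrid cells. Capitals mark the octamer ATGCAAAT or its reverse complement ATTTGCAT. The first 3 belong to sites that ranked near the top of their lists or hold the upstream region of Pou5f1, and the other 4 are the member windows with an octamer.
Pou5f1, upstream, chr17:35503972-35504271, + strand: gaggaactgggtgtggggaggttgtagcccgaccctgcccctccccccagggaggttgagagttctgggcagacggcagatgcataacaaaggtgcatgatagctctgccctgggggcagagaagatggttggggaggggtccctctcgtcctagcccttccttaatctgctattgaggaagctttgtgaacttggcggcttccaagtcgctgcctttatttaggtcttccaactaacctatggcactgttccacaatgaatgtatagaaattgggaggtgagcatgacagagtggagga
Nanog, upstream, chr6:122702670-122702969, + strand: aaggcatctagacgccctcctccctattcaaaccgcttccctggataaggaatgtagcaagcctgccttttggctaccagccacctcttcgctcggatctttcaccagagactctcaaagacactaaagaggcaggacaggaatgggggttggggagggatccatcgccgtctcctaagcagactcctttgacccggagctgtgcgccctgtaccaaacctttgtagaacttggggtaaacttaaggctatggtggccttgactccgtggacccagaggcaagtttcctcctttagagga
Zfp42, upstream, chr8:43320796-43321095, − strand: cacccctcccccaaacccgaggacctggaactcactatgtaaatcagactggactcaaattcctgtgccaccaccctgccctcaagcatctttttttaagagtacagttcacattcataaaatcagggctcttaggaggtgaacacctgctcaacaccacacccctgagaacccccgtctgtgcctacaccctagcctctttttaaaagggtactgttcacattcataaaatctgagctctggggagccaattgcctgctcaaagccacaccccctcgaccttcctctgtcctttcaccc
Zfp42, promoter, chr8:43307019-43307318, − strand: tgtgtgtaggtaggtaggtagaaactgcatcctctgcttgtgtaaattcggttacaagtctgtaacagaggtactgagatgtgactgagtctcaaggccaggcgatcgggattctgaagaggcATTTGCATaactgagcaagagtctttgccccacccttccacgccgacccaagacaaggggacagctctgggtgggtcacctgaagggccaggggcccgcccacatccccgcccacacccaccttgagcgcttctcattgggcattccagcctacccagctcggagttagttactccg
Dppa3, upstream, chr6:122624504-122624803, + strand: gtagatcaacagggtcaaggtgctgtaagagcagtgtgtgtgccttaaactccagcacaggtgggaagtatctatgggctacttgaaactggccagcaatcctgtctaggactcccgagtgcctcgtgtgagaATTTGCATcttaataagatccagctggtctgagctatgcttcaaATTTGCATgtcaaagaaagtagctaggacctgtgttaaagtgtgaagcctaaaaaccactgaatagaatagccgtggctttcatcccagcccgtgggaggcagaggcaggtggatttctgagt
Tfcp2l1, upstream, chr1:118625462-118625761, + strand: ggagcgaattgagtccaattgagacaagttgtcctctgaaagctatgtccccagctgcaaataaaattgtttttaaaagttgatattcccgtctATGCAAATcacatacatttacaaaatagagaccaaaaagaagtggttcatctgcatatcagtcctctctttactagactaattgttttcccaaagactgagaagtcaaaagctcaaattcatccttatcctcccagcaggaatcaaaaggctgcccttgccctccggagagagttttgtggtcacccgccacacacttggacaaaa
Esrrb, intron, chr12:86478911-86479210, + strand: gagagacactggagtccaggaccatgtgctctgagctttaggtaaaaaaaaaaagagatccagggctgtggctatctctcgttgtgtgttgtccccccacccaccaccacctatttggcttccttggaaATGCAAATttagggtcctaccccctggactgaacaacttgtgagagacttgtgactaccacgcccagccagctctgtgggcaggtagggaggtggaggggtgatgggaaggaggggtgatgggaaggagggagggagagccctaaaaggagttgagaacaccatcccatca
The octamer stood in 4 of 48 such member windows (8.33%) and in 1581 of 55550 windows of the same length at all ATAC sites found in all 4 lists (2.85%), with both strands searched. The Dppa3 window held 2 copies and the others 1. The count is of exact letters only and says nothing about windows with a changed octamer.

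Chromatin at the pluripotency genes was open in nearly every library. An ATAC peak lay within 1 kb of the TSS of 9, 9, 10 and 9 of the 10 genes in scramble KD replicates 1 and 2 and TERRA KD replicates 1 and 2, beside the shares of all genes given above. Nanog lacked the peak in scramble KD replicate 1, and Esrrb lacked it in both replicates 2. The mean was 9.0 ± 0 (SD, n = 2) in scramble KD and 9.5 ± 0.71 (SD, n = 2) in TERRA KD, and the exact permutation test over the 4 libraries, two-sided, gave p = 1.0, where the smallest p that 2 against 2 allows is 0.333. For 8 genes the peak was present in all 4 lists, as for 57.1% of all genes, and no gene gained or lost it in both TERRA KD replicates.

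Over the gene body all 10 genes had an ATAC peak in every list, against 68.2%, 71.9%, 70.6% and 73% of all genes. In the 20 kb upstream, 9 of 10 had one in both scramble KD lists and 10 of 10 in both TERRA KD lists, against 75.3%, 80.1%, 78.2% and 81.4% of all genes. The difference was Esrrb, whose upstream peaks appeared only in TERRA KD (p = 0.333, exact permutation test), and with equal numbers of top-ranked peaks in each list the counts were 9, 9, 9 and 10. ATAC peaks covered 8.67%, 9.32%, 9.44% and 9.96% of the bases of the 10 stretches, and 2.81%, 3.53%, 3.18% and 3.78% of the same stretches of all genes. The stretches held 67, 70, 74 and 74 peaks (68.5 ± 2.1 in scramble KD and 74.0 ± 0 in TERRA KD, SD, n = 2, p = 0.333, exact permutation test). These counts did not overlap between the conditions, but when the 78468 top-ranked peaks of each list were used they were 67, 57, 66 and 66 and overlapped.

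**Figure D1:**
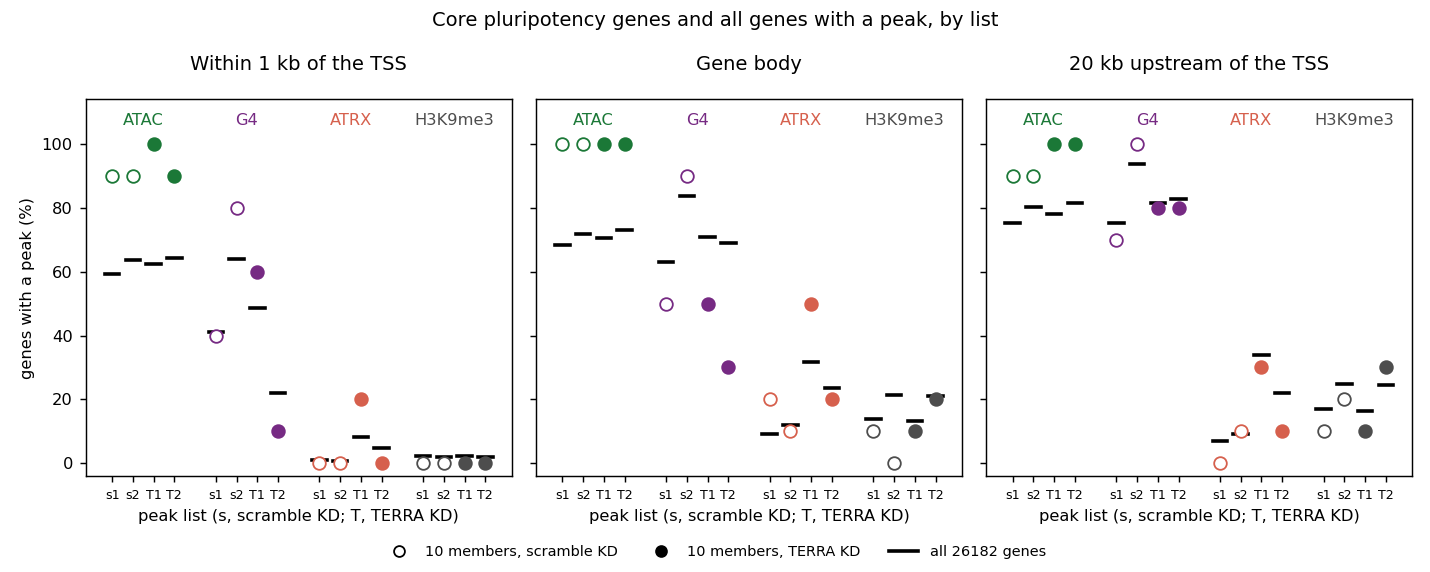
Share of the 10 core pluripotency genes (circles, in percent) and of all 26182 genes (bars, in percent) with a peak in each of the 16 lists, within 1 kb of the TSS, over the gene body and in the 20 kb upstream. The ATAC circles sit above the bars in every list and window, the H3K9me3 circles at the TSS are all at 0, and the G4 circles at the TSS run from 10% to 80%.

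Peaks of the 4 lists of an assay that shared a base, directly or through another peak, were merged into sites. The 10 genes had 89 ATAC sites, and 48 of them (53.9%) were present in all 4 lists, where 41.3% of the 134618 ATAC sites of the genome were. Of the 48 constant sites, 21 lay upstream of the gene, 18 lay in introns and 9 touched an exon. By gene, Esrrb had 15 constant sites, Dppa3 had 6, Pou5f1 and Prdm14 had 5 each, Tfcp2l1 and Zfp42 had 4, Sox2 and Tbx3 had 3, Nanog had 2 and Klf4 had 1. Another 14 of the 89 sites (15.7%) were in 1 list only, against 30.5% of all ATAC sites.

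The rank of a peak by its −log10 p within its own list, is given as a top percentage. The lists differ in length, so a site was also placed by its plain position in the list, counted from the strongest peak, and a change between conditions is named only with both measures. The site with the highest rank lay upstream of Zfp42, at 14.6 to 13.5 kb from the TSS (chr8:43320469-43321599), and ranked within the top 0.153% of every list. In scramble KD its −log10 p was 94.7 and 99.2, and TERRA KD gave 94.1 and 109. A site upstream of Nanog at 5.3 to 4.0 kb (chr6:122702237-122703476) was in the top 1.19%, 1.55%, 2.13% and 0.84% of the lists, with no overlap of any G4, ATRX or H3K9me3 peak. An intronic Esrrb site 140.4 to 141.4 kb from the first TSS was in the top 1.14%, 2.26%, 1.75% and 1.32%. At these 3 sites the ranks of the conditions overlapped.

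At Pou5f1, a site from 2321 to 105 bp upstream of the TSS was in the top 12.4% and 8.64% in scramble KD and the top 5.41% and 9.07% in TERRA KD. It was the site with the highest rank at this gene, and a second constant site lay 3268 to 3951 bp downstream of the TSS, inside the gene. The ATAC peak over the Nanog TSS (442 bp upstream to 296 bp downstream) had a lower rank than the upstream site, at the top 27.5% in scramble KD replicate 2 and the top 46.4% and 29.9% in TERRA KD, and was not listed in scramble KD replicate 1. At Sox2, which is transcribed inside the long noncoding gene Sox2ot, the TSS site was in the top 40.1% and 39.8% of the scramble KD lists and the top 27.9% and 38.6% of the TERRA KD lists. Klf4 had its one constant site from 1257 to 19 bp upstream of the TSS, in the top 72.0%, 47.8%, 58.0% and 52.3%. The leading sites of Pou5f1 and Klf4 thus lay upstream of the TSS window in part, and that of Nanog in full. At Sox2 a constant site 10.9 to 10.1 kb upstream was in the top 47.5% and 30.5% in scramble KD and the top 27.9% and 23.0% in TERRA KD. It outranked the Sox2 TSS site in both replicates 2.

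**Figure D2:**
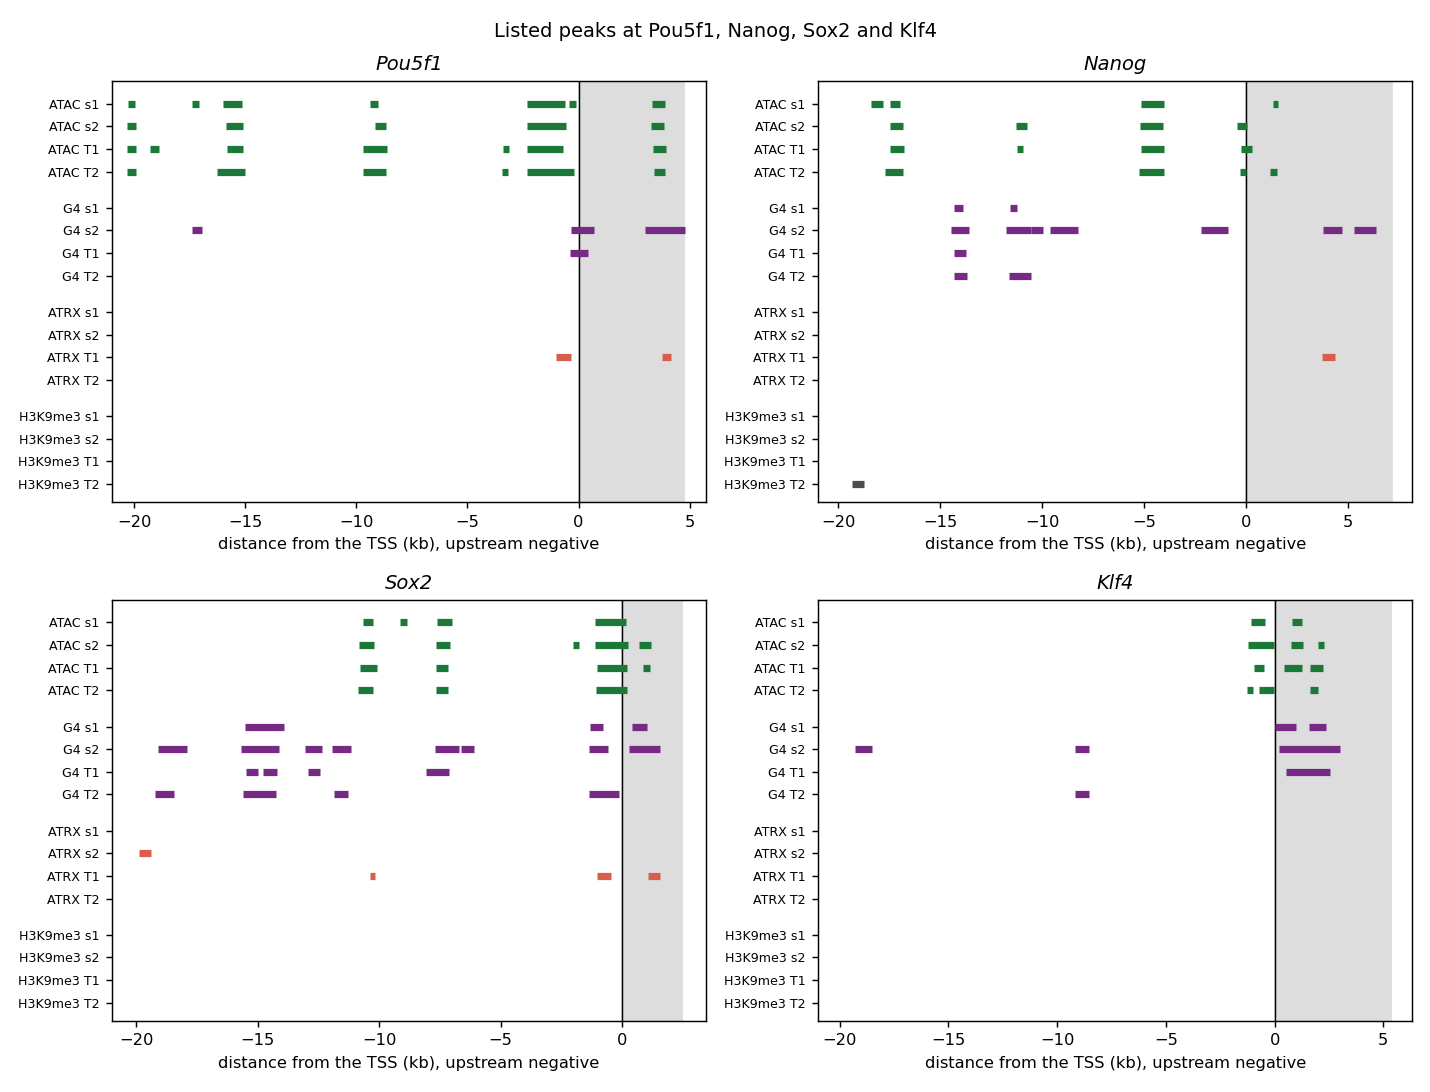
Peaks listed at Pou5f1, Nanog, Sox2 and Klf4 by distance from the TSS in kb (x axis, upstream negative, gene body shaded), with 1 row for each of the 16 lists (s, scramble KD; T, TERRA KD). ATAC peaks line up in columns over the 4 lists, such as the Nanog site 5.3 to 4.0 kb upstream, while ATRX peaks appear at any place in 1 list only and H3K9me3 is empty but for 1 peak at Nanog.

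Among the genes of the naive state, Tbx3 had 2 sites of high rank. The TSS site was in the top 1.60%, 4.77%, 2.07% and 1.12% of the lists, and a site 8.9 to 9.9 kb into the gene, over exon and intron, was in the top 0.67%, 1.46%, 2.33% and 2.80%. The second site ranked lower in both TERRA KD lists than in both scramble KD lists, by top percentage and by position. By top percentage, 10 of the 48 constant member sites were lower in both TERRA KD lists and 10 higher, against 12.6% and 22.4% of all constant ATAC sites. By position 17 of the 48 were lower and 7 of the 48 higher, against 17.6% and 19.1% of all, so the counts depended on the measure. By both measures the share of member sites that were lower was above that of all constant sites. The share that were higher was not above it by either measure. This difference was not tested, and sites of the same libraries are not replicates. In Tfcp2l1, an intronic site 19.9 to 20.7 kb from the TSS was in the top 3.67%, 5.50%, 3.03% and 3.12%. The Zfp42 promoter site was in the top 2.97% and 2.92% of the scramble KD lists and the top 1.96% and 1.69% of the TERRA KD lists. Prdm14 had no site in the top 20% of any list, and the Prdm14 site nearest the TSS (350 bp upstream to 327 bp downstream) was listed in 3 of 4 lists.

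The first TSS of Esrrb had an ATAC peak in the fewest lists of the 10 genes. It had one in scramble KD replicate 1 and TERRA KD replicate 1 only, at the top 76.5% and 91.8% of those lists. The second curated TSS of Esrrb lies 60.527 kb downstream, at chr12:86421644, and falls inside a constant ATAC site from 60.1 to 61.7 kb, which was in the top 75.0%, 54.4%, 66.8% and 48.3%. All 15 constant sites of Esrrb lay in the gene body, 13 of them in introns and 2 over part of an exon. In 3 of the 4 lists, all but TERRA KD replicate 1, the 3 sites with the highest rank at Esrrb lay 109.6 to 110.3, 117.5 to 118.4 and 140.4 to 141.4 kb from the first TSS.

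The rank of the best ATAC peak at the TSS was compared between conditions for the 14951 genes with a peak there in all 4 lists. Both TERRA KD ranks were below both scramble KD ranks for 8.2% of these genes, and above both for 25.3%. Of the 8 pluripotency genes among them, 1 was lower, Dppa3, and 3 were higher, Sox2, Tfcp2l1 and Zfp42. By position in the list, 12.9% of these genes were lower and 22.1% higher, and among the pluripotency genes Dppa3 was lower and only Zfp42 was higher, while Sox2 and Tfcp2l1 overlapped between the conditions. At Dppa3 the best peak in the TSS window was in the top 25.6% and 27.6% of the scramble KD lists and the top 38.9% and 47.7% of the TERRA KD lists. These values join different sites. The best peak lay over the TSS in scramble KD replicate 1 and at an intronic site, 902 to 2083 bp downstream, in the other lists. The intronic site was in the top 61.5%, 27.6%, 38.9% and 47.7%, and by both measures its ranks overlapped between the conditions. The Dppa3 site over the TSS itself (336 bp upstream to 299 bp downstream) went from the top 25.6% and 32.1% to the top 66.0% and 54.0%. Its −log10 p was 13.9 and 13.2 with the scramble gapmer, and 5.42 and 6.96 with the TERRA gapmer. The conditions do not overlap at this site by either measure of rank, but 2 libraries against 2 cannot pass a threshold of 0.05, and 1 of 8 genes is close to the shares over all genes.

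**Figure D3:**
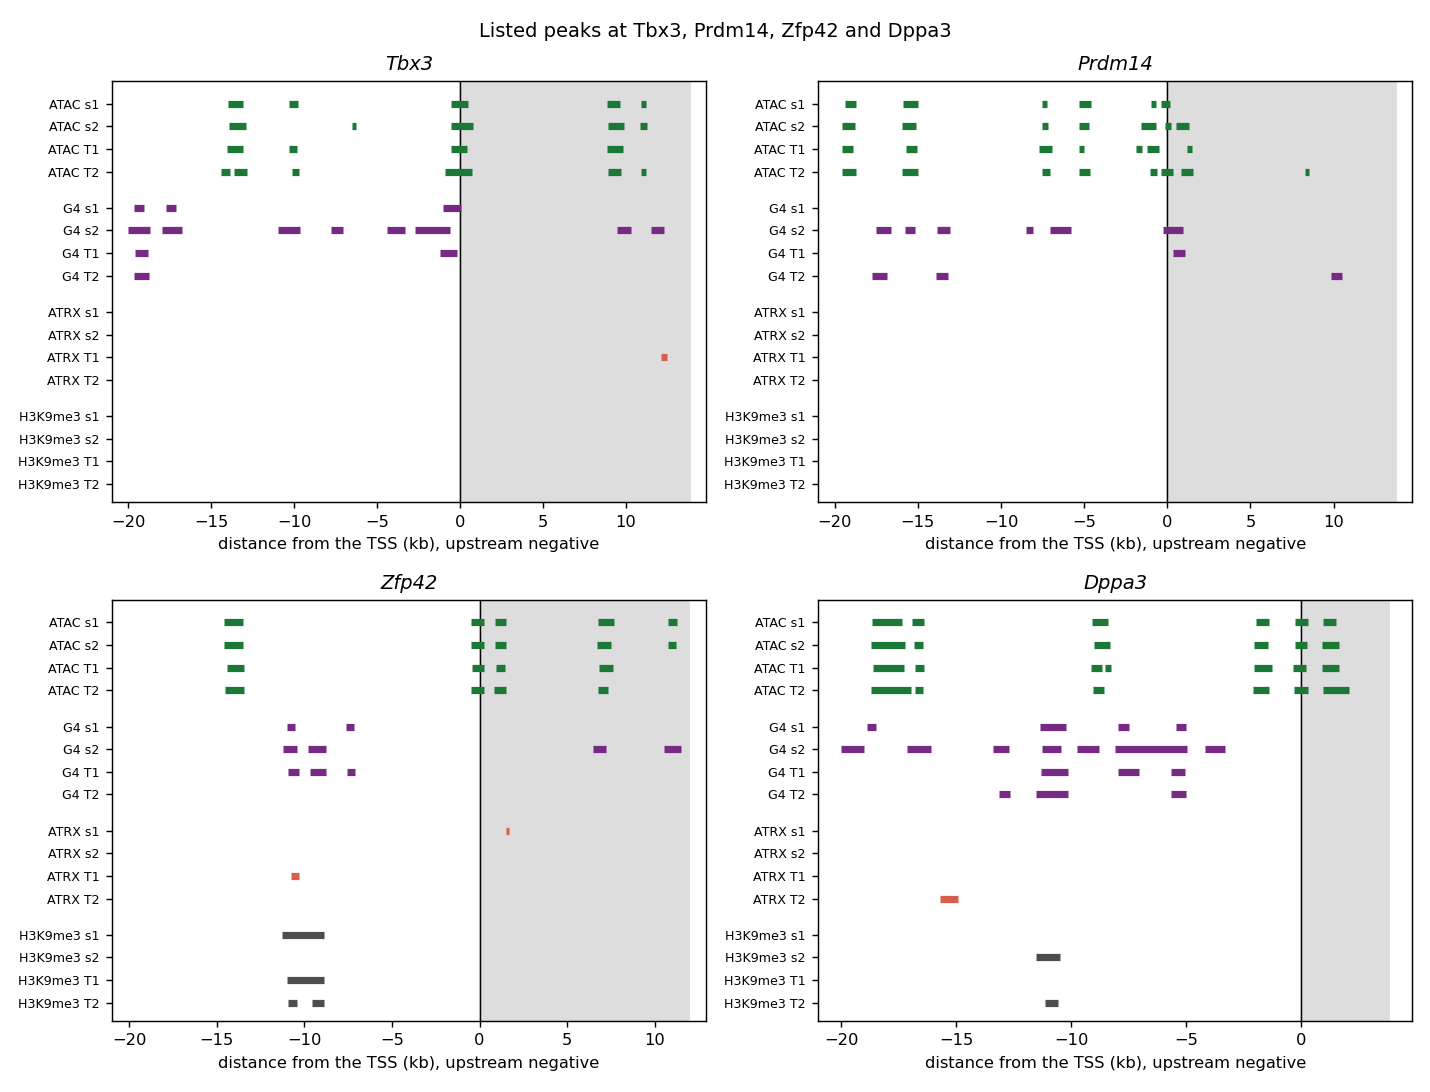
Peaks listed at Tbx3, Prdm14, Zfp42 and Dppa3, drawn against distance from the TSS in kb (gene body shaded) with 1 row for each list. The Zfp42 ATAC site near 14 kb upstream is in all 4 lists, G4 and H3K9me3 peaks meet upstream of Zfp42 and upstream of Dppa3, and no H3K9me3 peak lies at Tbx3 or Prdm14.

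Sites present in both replicates of one condition and in neither of the other were few. In both TERRA KD lists only there were 3 of 89 ATAC sites (3.37%), against 3.22% of all ATAC sites. They lay at 3428 to 3122 bp upstream of Pou5f1, 7647 to 7228 bp upstream of Tfcp2l1 and 17.1 to 16.5 kb upstream of Esrrb, and none was above the top 60% of its lists. In both scramble KD lists only there was 1 site (1.12%, against 1.81% of all ATAC sites), in the last part of Zfp42, 10777 to 11275 bp from the TSS, at the top 96.4% and 92.3%. These sites are thus among the weaker ones and their share among the members is close to that of the genome.

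**Figure D4:**
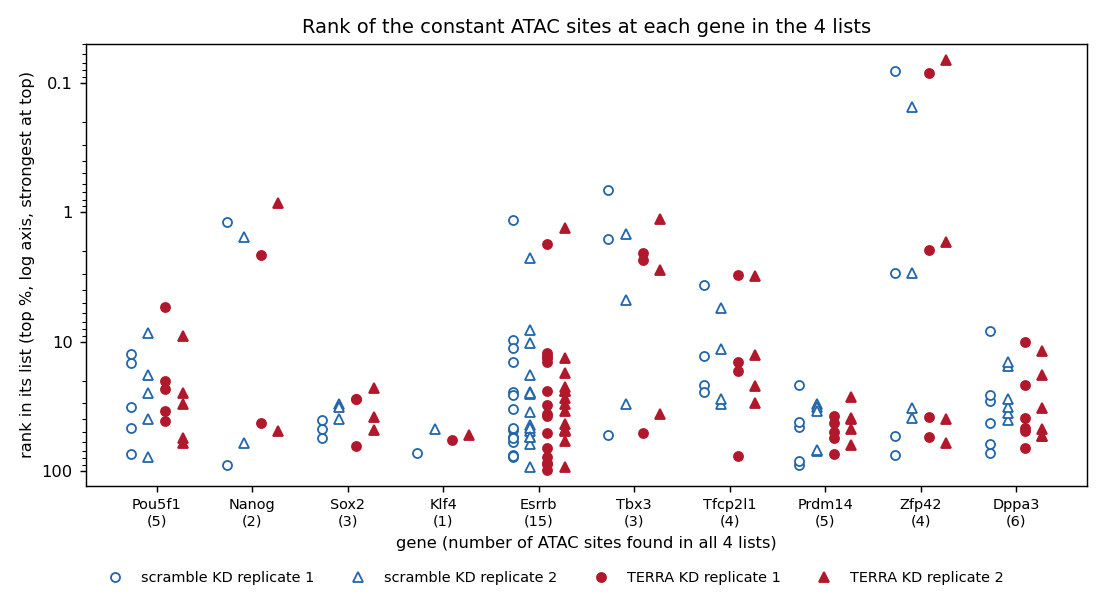
Rank of each ATAC site present in all 4 lists, by gene, as the top percentage of its list (log axis, strongest at the top). Open symbols are scramble KD and filled symbols TERRA KD, with circles for replicate 1 and triangles for replicate 2. The leading sites of Zfp42, Nanog, Tbx3, Esrrb and Tfcp2l1 stay within the top 5.50% of all 4 lists.

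G4 peaks at the TSS of the pluripotency genes differed as much between replicates as between conditions. Within 1 kb of the TSS, 4 genes had a G4 peak in scramble KD replicate 1 (Sox2, Klf4, Esrrb and Tbx3) and 8 had one in scramble KD replicate 2 (all but Zfp42 and Dppa3). In TERRA KD, 6 had one in replicate 1 (Pou5f1, Klf4, Esrrb, Tbx3, Tfcp2l1 and Prdm14) and 1 in replicate 2 (Sox2). The shares of all genes were 41.2%, 64.1%, 48.5% and 22.1%. The mean number of genes was 6.0 ± 2.8 (SD, n = 2) in scramble KD and 3.5 ± 3.5 (SD, n = 2) in TERRA KD (p = 0.667, exact permutation test, two-sided), and the values of the conditions overlapped. No pluripotency gene lost its TSS peak in both TERRA KD replicates while keeping it in both scramble KD replicates, where 4.74% of all genes did, and none had a peak in all 4 lists, where 9.16% did.

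Each TSS peak differed in position and depth between the lists. At Pou5f1 the peak in scramble KD replicate 2 (328 bp upstream to 688 bp downstream) held 37 tags at a −log10 p of 7.17, and that in TERRA KD replicate 1 (372 bp upstream to 426 bp downstream) held 12 tags at 2.62. Klf4 had G4 peaks inside the gene in 3 lists, with −log10 p of 5.38 and 16.5 in scramble KD and 6.67 in TERRA KD replicate 1, over exons and introns. The Esrrb peak over the first TSS was present in the same 3 lists, at a −log10 p of 3.30, 12.6 and 9.57. At Nanog the TSS window was touched only by the end of a peak from 2213 to 892 bp upstream in scramble KD replicate 2. Zfp42 and Dppa3 had no G4 peak at the TSS in any list, as 25.1% of all genes.

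Over the gene body, 5, 9, 5 and 3 of the genes had a G4 peak in scramble KD replicates 1 and 2 and TERRA KD replicates 1 and 2, against 63.1%, 83.6%, 70.8% and 69% of all genes. In the 20 kb upstream the counts were 7, 10, 8 and 8, against 75.3%, 93.7%, 81.6% and 82.9%. The body difference had p = 0.667 and the upstream difference p = 1.0 (exact permutation test). The stretches held 30, 134, 44 and 47 G4 peaks, a mean of 82.0 ± 73.5 in scramble KD and 45.5 ± 2.1 in TERRA KD (SD, n = 2, p = 1.0, exact permutation test). The lower mean in TERRA KD rested on scramble KD replicate 2, without which TERRA KD had 15.5 peaks more than the remaining scramble KD library. Esrrb alone held 11, 65, 21 and 27 of these peaks.

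Merging gave 145 G4 sites at the 10 genes, of which 69 were in scramble KD replicate 2 only and 8 (5.52%) in all 4 lists, where 9.29% of the 477483 G4 sites of the genome were. The 8 constant sites lay upstream of Nanog, Sox2, Esrrb, Tbx3 and Tfcp2l1 with 1 each, upstream of Dppa3 with 2, and in an Esrrb intron with 1. Another 4 sites (2.76%) were in both scramble KD lists only, against 1.7% of all G4 sites, 1 each at Sox2, Esrrb, Tbx3 and Tfcp2l1, and 1 site, at Esrrb, was in both TERRA KD lists only (0.69%), against 0.733% of all. Of the 8 constant G4 sites 1 touched an ATAC peak, against 25% of all constant G4 sites, and of the 48 constant ATAC sites 21 (43.8%) touched a G4 peak of some list, against 61.1% of all constant ATAC sites.

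The G4 site with the highest rank at any of the genes lay upstream of Dppa3, 11.5 to 10.1 kb from the TSS (chr6:122614925-122616315). The scramble KD peaks there counted 34 and 108 tags and the TERRA KD peaks 69 and 107, at −log10 p of 30.2, 63.7, 45.2 and 42.2, and the site ranked in the top 0.23%, 0.49%, 0.10% and 0.022% of the lists. It ranked higher in both TERRA KD lists, as did 12.4% of all constant G4 sites by top percentage and 13.2% by position, although the −log10 p overlapped between the conditions. No ATAC peak touched it in any list, and an H3K9me3 peak did in both replicates 2. The Dppa3 upstream window also holds Gdf3, another gene of pluripotent cells, whose TSS is on the other strand. Peaks beyond that TSS also belong to Gdf3, among them the constant ATAC sites 18.7 to 17 and 16.9 to 16.4 kb upstream of Dppa3. Peaks between the starts of Dppa3 and Gdf3 are upstream of both genes. The G4 site of highest rank is one of them and lies closer to the Gdf3 TSS, so it cannot be assigned to Dppa3 alone. Other annotated genes reach into the windows, Mir1897 upstream of Sox2, Tbx3os1 over the TSS of Tbx3 and Ncoa2 upstream of Prdm14.

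The 6 other constant upstream sites had lower ranks in every list. The second Dppa3 site, 8.1 to 4.9 kb upstream, was in the top 4.53%, 8.53%, 3.03% and 69.3%. The Esrrb site 11.9 to 11.3 kb upstream was in the top 67.9%, 56.8%, 32.5% and 59.3%. At Sox2 the site 15.7 to 13.9 kb upstream was in the top 0.50%, 6.33%, 50.9% and 10.5%. By top percentage it was lower in both TERRA KD lists, as were 14.8% of all constant G4 sites, but its positions (701, 24656, 88340 and 23636) overlapped between the conditions, and no member site was lower by position, where 11.1% of all were. At Nanog the site 14.5 to 13.6 kb upstream was in the top 5.10%, 30.1%, 17.2% and 64.8%. At Tfcp2l1 the site 19.5 to 18.5 kb upstream, inside the neighbouring gene Clasp1, was in the top 17.4%, 12.0%, 13.6% and 10.5%, the narrowest range of the 6, and had a higher position in both TERRA KD lists (24416, 46570, 23560 and 23707). At Tbx3 the site that runs from the far edge of the window to 18.7 kb upstream was in the top 44.8%, 7.91%, 63.7% and 7.64%, with the replicates of one number alike and the conditions overlapping.

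The letters that can fold into a G4 were counted with a plain rule on both strands of the reference. It asked for 4 runs of at least 3 G with loops of 1 to 7 bases. A loop could itself hold G, so 1 long tract of G could count as more than 1 run. The proximal Sox2 and the Zfp42 sequences below meet the rule only in this way. The runs below are a selection, 1 from each of 6 upstream G4 sites found in 3 or 4 lists, at Dppa3, Nanog, Sox2, Tbx3 and Zfp42. The proximal Sox2 site holds 3 motifs, of which 1 is shown, and a Tbx3 site in 3 lists that reaches the TSS holds 2, which are not shown. Upstream Esrrb sites in 3 lists hold 4, 4 and 2, and the Esrrb site over the first TSS holds 1, also not shown. Capitals mark the motif, which is the whole run, on the strand that holds the G.
Dppa3, chr6:122615155-122615191, + strand: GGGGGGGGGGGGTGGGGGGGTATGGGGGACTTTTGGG
Nanog, chr6:122693367-122693385, − strand: GGGCTGGGTGGGGGTGGGG
Sox2, distal, chr3:34635643-34635664, − strand: GGGAGAGAGGGAGGGAGGGGGG
Sox2, proximal, chr3:34649769-34649786, + strand: GGGGGGCGGGGGGGGGGG
Tbx3, chr5:119651446-119651469, − strand: GGGGCCTGGGGGATGGGGGTGGGG
Zfp42, chr8:43317756-43317780, + strand: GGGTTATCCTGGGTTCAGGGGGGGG
The motif was present within 1 kb of the TSS of 9 of the 10 genes, all but Dppa3, and of 54.9% of all genes, beside a median GC share of the window of 53.0% and 50.9%. Klf4 had 5 motifs there, Pou5f1 and Sox2 had 3, and the other 6 had 1. Of the member G4 sites, 5 of 8 in all 4 lists held the motif, 12 of 19 in 3 lists, 17 of 40 in 2 lists and 15 of 78 in 1 list, with median lengths of 1348, 1402, 924 and 791 bp, so the sites in 3 or 4 lists were also longer than those in 1 or 2. Zfp42 had a motif in the TSS window and no G4 peak there. No stretch held 2 adjacent copies of the telomeric repeat TTAGGG.

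ATRX peaks at the TSS of the pluripotency genes were few, as at the TSS of all genes, and no ATRX site was found in more than 1 list. Within 1 kb of the TSS there was none in either scramble KD list, 2 in TERRA KD replicate 1, at Pou5f1 and Sox2, and none in TERRA KD replicate 2. The shares of all genes were 1.07%, 0.592%, 8.23% and 4.84%. With means of 0 ± 0 in scramble KD and 1.0 ± 1.4 in TERRA KD (SD, n = 2), the exact permutation test gave p = 1.0. No pluripotency gene had an ATRX peak at the TSS in both TERRA KD and in neither scramble KD replicate, where 0.71% of all genes did, and 8 of 10 had none in any list, where 86.4% of all genes had none.

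Over the gene body, 2, 1, 5 and 2 genes had an ATRX peak in scramble KD replicates 1 and 2 and TERRA KD replicates 1 and 2, against 9.13%, 11.8%, 31.6% and 23.6% of all genes (p = 0.667, exact permutation test). Upstream the counts were 0, 1, 3 and 1, against 6.97%, 9.02%, 34% and 22.1% (p = 0.667, exact permutation test). The stretches held 16 ATRX peaks in all, 2, 2, 9 and 3, which is 2.0 ± 0 in scramble KD and 6.0 ± 4.2 in TERRA KD (SD, n = 2, p = 0.333, exact permutation test). The counts did not overlap, but the TERRA KD lists were also longer. Per 1000 listed peaks the stretches held 0.274, 0.147, 0.218 and 0.138, which overlapped between the conditions. An ATRX peak lay in the stretch of 2, 2, 6 and 3 of the 10 genes, against 15.2%, 19.3%, 53.2% and 38.4% of all genes. With the 7290 top-ranked peaks of each list the counts were 2, 0, 2 and 0. Klf4 and Prdm14 had no ATRX peak.

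All 16 ATRX peaks were weak. They held 4 to 17 tags, had a −log10 p of 2.01 to 3.95, and each was a site found in 1 list only, as were 94.7% of the ATRX sites of the genome. The false discovery rate given in the deposited files was 70.5% to 100% for the 9 peaks of TERRA KD replicate 1 and 3.64% to 3.70% for the 3 of TERRA KD replicate 2. In TERRA KD replicate 2, 99.9% of all listed ATRX peaks had a rate of at most 5%. The share was 4.96% in TERRA KD replicate 1 and 0% in both scramble KD lists. The rate thus differed by list and does not set these 3 peaks apart. At Pou5f1, the peak of TERRA KD replicate 1 from 1022 to 336 bp upstream held 8 tags at a −log10 p of 3.38 and lay inside the constant ATAC site upstream of the gene. At Sox2, the peaks of the same list held 4 tags (10364 to 10175 bp upstream), 5 tags (1040 to 466 bp upstream) and 5 tags (1050 to 1564 bp downstream of the TSS), and each touched an ATAC peak of the same replicate and condition. Of the 16 ATRX peaks, 7 touched an ATAC peak of some list, 9 a G4 peak and 1 an H3K9me3 peak, where 17.2%, 43.9% and 26.4% of all ATRX sites did.

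No H3K9me3 peak was listed within 1 kb of the TSS of any of the 10 genes, where 2.28%, 1.96%, 2.36% and 2.07% of all genes had one in scramble KD replicates 1 and 2 and TERRA KD replicates 1 and 2, and where 94.8% of all genes had none in any list. With such a background, 0 of 10 does not set these genes apart. Over the gene body 1, 0, 1 and 2 genes had a peak, against 13.9%, 21.3%, 13.2% and 21.2% of all genes (p = 0.667, exact permutation test). Upstream 1, 2, 1 and 3 genes had one, against 17.1%, 24.7%, 16.3% and 24.6% (p = 1.0, exact permutation test). The stretches held 2, 2, 2 and 7 peaks (2.0 ± 0 and 4.5 ± 3.5, SD, n = 2, p = 1.0, exact permutation test), and the higher mean in TERRA KD came from replicate 2. H3K9me3 peaks covered 0.78%, 0.30%, 0.76% and 0.81% of the bases of the stretches, and 2.25%, 1.15%, 2.63% and 1.29% of those of all genes.

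The H3K9me3 peaks formed 8 sites, and 3 were found in more than 1 list. One lay upstream of Zfp42, 11.3 to 8.9 kb from the TSS (chr8:43315869-43318298), in scramble KD replicate 1 (60 tags, −log10 p of 5.49), TERRA KD replicate 1 (52 tags, 3.28) and TERRA KD replicate 2 (2 peaks of 8 and 6 tags, 3.67 and 2.95). The same place carried a G4 peak in 3 lists and the ATRX peak of TERRA KD replicate 1 (10762 to 10321 bp upstream, 5 tags), and is the only one at the 10 genes where ATRX, H3K9me3 and G4 peaks met. The Zfp42 ATAC site near 14 kb upstream and the Zfp42 promoter site flank it, and no ATAC peak touched it. The second site was the one shared with the Dppa3 G4 site, with 15 tags at 3.51 in scramble KD replicate 2 and 7 tags at 3.16 in TERRA KD replicate 2. The third was in an Esrrb intron, 96.5 to 97.9 kb from the TSS, in scramble KD replicate 1 and TERRA KD replicate 2.

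**Figure D5:**
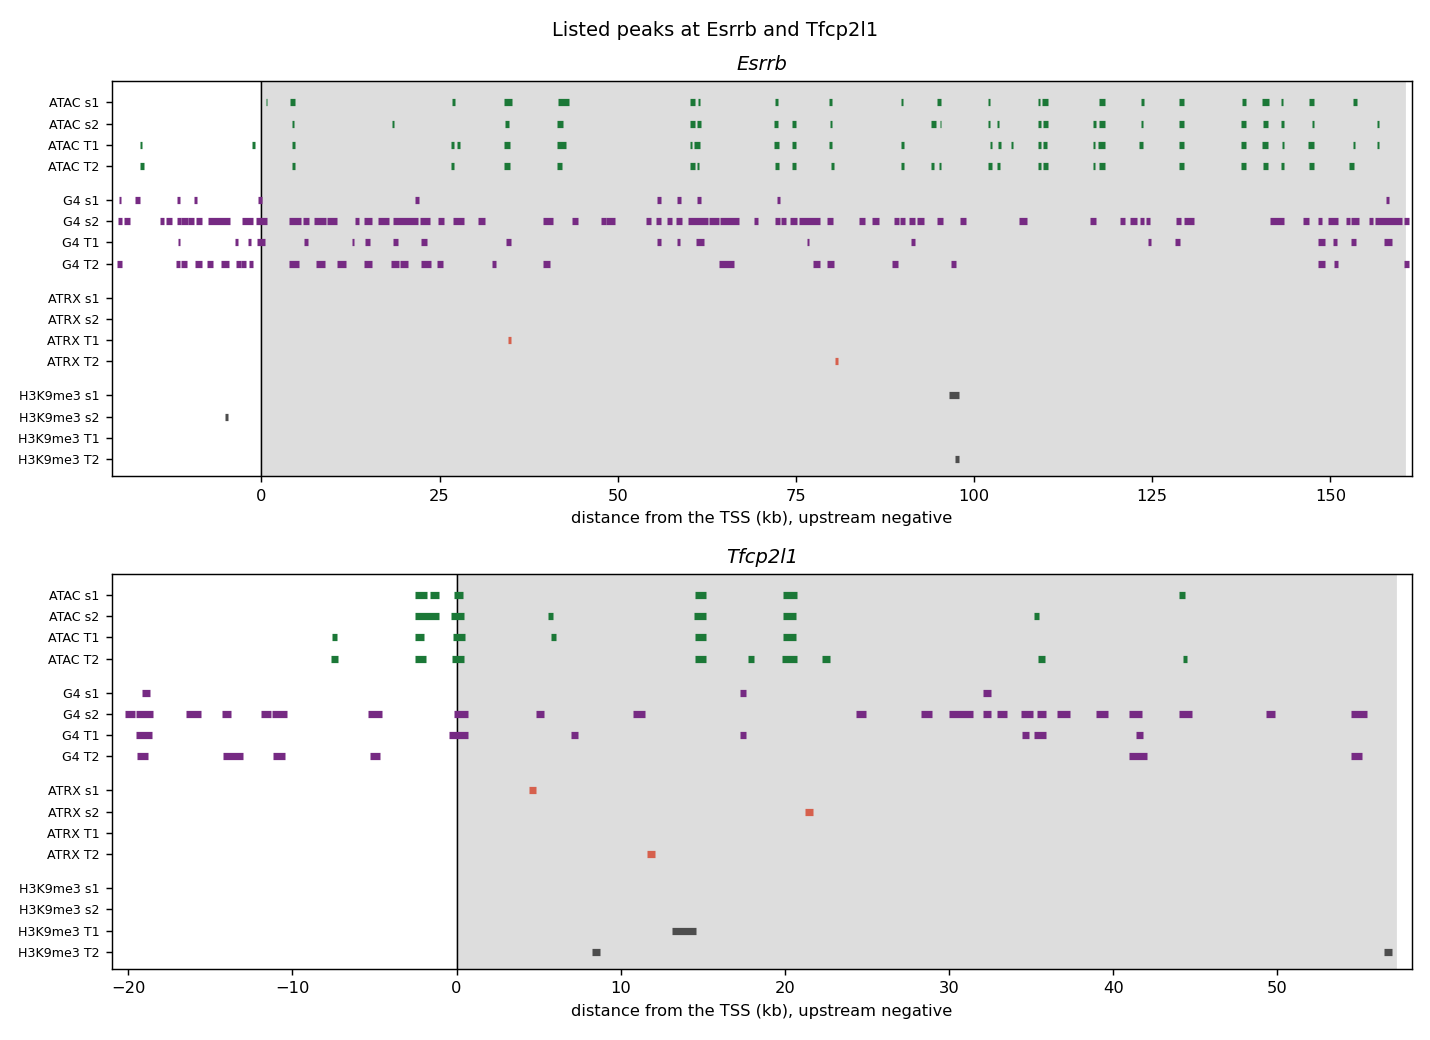
Peaks listed at Esrrb and Tfcp2l1, the longest of the 10 genes, by distance from the first TSS in kb (gene body shaded), with 1 row for each list. ATAC peaks recur in columns along the Esrrb body, the G4 row of scramble KD replicate 2 holds 65 of the Esrrb peaks, and ATRX and H3K9me3 show a few scattered peaks.

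The wider list of 26 pluripotency genes was read in the same way at the TSS. ATRX peaks were listed at 1 of them in scramble KD replicate 1 (Socs3), 0 in replicate 2, 4 in TERRA KD replicate 1 (Il6st, Utf1, Lefty1 and Lefty2) and 1 in TERRA KD replicate 2 (Gdf3), beside 1.07%, 0.592%, 8.23% and 4.84% of all genes, and no gene had one in both TERRA KD lists. The Gdf3 peak is the one already counted at Dppa3, 15696 to 14895 bp upstream of the Dppa3 TSS. G4 peaks were listed at 13, 21, 20 and 4 of them, or 50%, 80.8%, 76.9% and 15.4%, beside the 41.2%, 64.1%, 48.5% and 22.1% of all genes. Tdgf1, the Nodal co-receptor Cripto, was the 1 gene of 26 with a G4 peak in both scramble KD lists and in neither TERRA KD list, near the 4.74% of all genes. Its peaks lay at 2 different places, 326 to 727 bp downstream of the TSS in scramble KD replicate 1 (5 tags, −log10 p of 3.92) and 935 to 281 bp upstream in replicate 2 (20 tags, 3.48). None of the 26 had an H3K9me3 peak at the TSS in any list.

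Taking presence or absence in the 3 windows of the 16 lists as 48 values, the pluripotency genes had 19 to 27 present. The genes with the most similar pattern, by the number of values present in both over the number present in either (Jaccard), differed for each. For Pou5f1 they were Gm6297 and Surf2 (0.955 each), for Nanog B2m and Eef1g (0.905 each), and for Sox2 Comtd1 and Dact3 (0.889 each). Ties were named in order of symbol, and the highest value was shared by 4 genes for Nanog, 10 for Tbx3 and 13 for Prdm14. For Klf4, 4 genes had the identical pattern, of which BC037032 and Bex1 come first by symbol. For Esrrb they were Tiam2 (0.828) and Adam11 (0.821), for Tbx3 Gm5475 (0.957), and for Tfcp2l1 Aff2 (0.931) and Trim36 (0.926). For Prdm14 they were Anapc2 and Arel1 (0.950 each), for Zfp42 Zfp108 and Zfp383 (0.870 each), and for Dppa3 Cd1d1 (0.950) and Gm1653 (0.947). None of the closest genes was another of the 10.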

How the data were processed

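ATRX, H3K9me3 and G4 ChIP-seq and ATAC-seq peaks were analysed for scramble KD and TERRA KD mouse ES cells with 2 replicates each, and 6 input libraries entered only through the authors' peak calls. Per the labels, reads were trimmed with Trim Galore (0.5.0), aligned to mm10 with Bowtie2 (2.3.4.1) and handled with SAMtools (1.9). Peaks were called by the authors in each library at a p of 0.01 with MACS 1.4.3 (ATRX, H3K9me3), 1.4.2 (G4) and 2.2.7.1 (ATAC, no input), per the file headers. The ChIP files deposited by the authors give a tag count, a score (−10 times log10 of the p), a fold enrichment and a false discovery rate in percent, which was not used as a filter. The deposited ATAC files give a pileup signal, a −log10 p and a fold enrichment. None of these is scaled between libraries, so peaks were ranked within a list, and a site without a peak is one where enrichment was not detectable at that depth. Tag counts cover counting error only and share inputs between ATRX and H3K9me3 and between the G4 replicates.

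A peak counted for a window when at least 1 bp was shared. The most upstream curated start of each gene was taken as TSS. Conditions were compared with a permutation test (exact, two-sided, smallest p 0.333), tested on simulated data. Replicates are biological per the study, but 2 per condition limit every comparison. All 10 genes are named in the text, with neighbours inside their windows, at most 2 genes of most similar pattern each, and genes of the wider list with a replicated change at the TSS. The members and lists were chosen with earlier results of these data known. Alternatives kept peaks whose −log10 p reached 5, equal numbers of top-ranked peaks, peak centres, other windows and starts, a replicate block, and each library left out. Python 3 with NumPy, pandas and Matplotlib was used.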

Additional observations from a re-analysis of the deposited data

How the results depend on the processing

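Over the 16 results on the 10 genes, 148 alternative values were computed and 7 changed direction. With equal numbers of top-ranked peaks, the difference (TERRA KD minus scramble KD) in genes with an ATRX peak over the body went from 2 to −1. With a −log10 p of at least 5, genes with an upstream H3K9me3 peak and H3K9me3 peaks over the stretches both became −0.5, and no ATRX peak was left. With peak centres, genes with an ATAC peak at the TSS became −0.5. Without TERRA KD replicate 2 the upstream H3K9me3 difference was −0.5, and without scramble KD replicate 2 the G4 differences were 1 for genes with an upstream peak and 15.5 for peaks over the stretches. Leaving out 1 library at a time, these 3 ranged from −0.5 to 1.5, −2 to 1 and −88.5 to 15.5. In these cases the cause was not tested beyond the change in the peaks or libraries used. For the 40 results on peaks of one gene, 14 of 280 alternatives moved by more than the spread between replicates. With the replicate block each difference kept its value, for example 5.5 ATAC peaks, and the sign-flip test on 2 pairs cannot go below p = 0.5 (exact), so it changed no call. As a check of the pairing, deviations of libraries with the same number correlated over all genes (ATRX r = −0.10, H3K9me3 0.76, G4 0.69, ATAC 0.26), and 2 pairs share only a number. By position in the list in place of top percentage, chosen after seeing the data, constant ATAC sites ranked lower in both TERRA KD lists went from 10 to 17 and higher from 10 to 7, constant G4 sites from 1 to 0 and from 1 to 2, and TSS peaks ranked higher from 3 to 1, with 1 lower by both. The shallowest library had 2961038 tags (G4).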
